A study of Mus musculus with 10 samples.

Results

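The genes described here carry ketone bodies and lactate across cell membranes, burn ketone bodies, or admit fatty acids to mitochondrial oxidation: Bdh1, Oxct1, Acat1, Acat2, Slc16a1, Slc16a7, Slc16a3, Cpt1a and Hadhb. They were chosen by symbol, taking every probe set whose array annotation names 1 of these 9 genes alone. A probe set is a group of short probes on the array that report 1 transcript. Of the 9 genes, 8 had a probe set, out of 12393 genes on the array. No probe set was annotated to Acat2, and it has no value below. The 8 genes had 17 probe sets of 22626, and 14 of the 17, from 7 genes, were bright enough to be tested.

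Total RNA from the brain of C57BL/6 mice, a common inbred laboratory strain, was measured on Affymetrix MOE430A arrays at 1 week and at 8 weeks of age. The 1-week group had 3 arrays labelled female and 3 labelled male, and the 8-week group had 2 of each, 10 arrays in all. The labels name no other genotype or treatment, and they number the brains without stating that each number is a separate animal. The p-values therefore measure the spread between these arrays, which may in part be technical.

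Ketone bodies, chiefly β-hydroxybutyrate and acetoacetate, are made in the liver from fatty acids when fat supplies much of the energy. Mouse milk is rich in fat, so the brain of a suckling pup receives ketone bodies together with glucose, whereas weaned mice on chow rely far more on glucose. Ketone bodies enter cells through monocarboxylate transporters, which also carry lactate and pyruvate. Inside mitochondria BDH1 oxidises β-hydroxybutyrate to acetoacetate, OXCT1 activates acetoacetate with coenzyme A, and ACAT1 splits the product into acetyl-CoA for the citric acid cycle. Mice of 1 week are suckling and mice of 8 weeks are usually weaned, but the labels give no diet, and diet and age cannot be told apart in this design.

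At 8 weeks the transcripts of the transporter Slc16a1 and of the mitochondrial enzymes that burn ketone bodies were lower than at 1 week. The long-chain thiolase subunit Hadhb was higher. Slc16a3, another transporter, was called lower with overlapping ages, and Slc16a7 was too dim to be tested. Of the 14 tested probe sets, 10 were lower, 2 higher and 2 did not pass the test (limma, Benjamini-Hochberg adjusted p under 0.05 over all probe sets tested). By genes, each represented by its brightest probe set, 5 were lower (Bdh1, Oxct1, Acat1, Slc16a1 and Slc16a3), 1 was higher (Hadhb) and 1 was not called (Cpt1a). Age moved much of the transcriptome: 23.9% of all 13576 tested probe sets were called lower and 22.1% higher, 46.0% in either direction. In 9 of the 14 probe sets every 8-week array lay below every 1-week array, as in 18.3% of all tested probe sets, and in 1 of the 14 every 8-week array lay above, as in 17.1%. Among all 8148 genes tested the shares were 24.0% lower and 21.9% higher. Changes are given as log2 differences, 8 weeks minus 1 week, of quantile-normalized intensity with a pseudocount of 24, which understates the change of dim probe sets.

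These directions are relative to the brightness of all probe sets. The deposited arrays had trimmed means of 138 to 236 at 1 week and 255 to 318 at 8 weeks, and quantile normalization removed that difference. Without normalization the median of all probe sets was 0.47 higher at 8 weeks on the log2 scale. Calls there were 8673 higher and 629 lower over all probe sets, and 3 higher and 5 lower among the 14 of these genes. Scaling to the spike-in controls of the array, with a median shift of 0.15, gave 2688 higher and 1013 lower over all, and 2 higher and 7 lower among the 14. In that fit all 14 had the same SE, 0.199, so their calls and p-values followed the size of the change alone. The 5 probe sets still lower on the unnormalized scale belonged to Bdh1, Oxct1 and Acat1.

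Correlations of log2 values were 0.973 to 0.981 within groups and 0.930 to 0.951 between ages. The 3′ to 5′ signal ratio of actin, a sign of RNA quality, was 0.967 to 1.10 at 1 week and 1.05 to 1.14 at 8 weeks. For Gapdh that ratio was 0.725 to 0.911 and 0.779 to 0.813. In 4 of the 6 1-week arrays Xist, which is expressed from the inactive X chromosome of females, went against the labelled sex, so labelled sex at 1 week is not used as a sex. Leaving out those 4 arrays kept only female 3 and male 1 at 1 week, and the model then held age alone. In that setting 8 of the 14 probe sets were lower and 1 higher at 8 weeks, and 3 member genes were lower. Over all probe sets 1968 were lower and 2074 higher there. As a check of the labelled tissue, the filter on low values was passed by 9 of 9 mature neuron and 10 of 10 astrocyte markers. It was also passed by 8 of 9 oligodendrocyte, 11 of 12 endothelial and 8 of 8 meningeal and mural markers. Pituitary markers passed in 4 of 6, choroid plexus in 3 of 5 and blood in 1 of 4. Of all 22626 probe sets 13576 passed, so passing does not separate brain from tissue attached to it.

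The promoter windows below show how differently these genes begin. Each is the 250 bases before an annotated start, from RefSeq on mouse build GRCm38.p6, on the strand of the gene, written 5′ to 3′. Windows were found for 7 of the 9 genes, 8 windows in all. Slc16a1 is shown as a transporter whose transcript fell, and the window of Slc16a3, also called lower, is described below without its sequence. Bdh1, both of whose probe sets fell, is shown with both of its annotated starts. Which start a probe set reports was not examined. Cpt1a and Hadhb are shown because they were not called lower. Capitals mark matches, on either strand, to 4 motifs: the GC box, GGGCGG, then CCAAT, then the core of the TATA box, TATAAA, and the half-site of nuclear receptors, AGGTCA.
Slc16a1, chr3:104638414-104638663, plus strand: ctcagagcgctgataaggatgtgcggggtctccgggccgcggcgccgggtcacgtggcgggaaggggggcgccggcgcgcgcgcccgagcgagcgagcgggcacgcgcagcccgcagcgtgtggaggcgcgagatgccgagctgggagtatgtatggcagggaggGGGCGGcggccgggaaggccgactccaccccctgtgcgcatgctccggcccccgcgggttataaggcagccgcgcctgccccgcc
Bdh1, first start, chr16:31422047-31422296, plus strand: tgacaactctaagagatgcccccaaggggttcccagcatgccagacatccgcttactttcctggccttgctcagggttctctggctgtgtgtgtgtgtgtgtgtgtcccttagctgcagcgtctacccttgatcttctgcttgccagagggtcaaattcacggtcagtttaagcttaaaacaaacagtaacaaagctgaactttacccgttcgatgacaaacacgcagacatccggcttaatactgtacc
Bdh1, second start, chr16:31428503-31428752, plus strand: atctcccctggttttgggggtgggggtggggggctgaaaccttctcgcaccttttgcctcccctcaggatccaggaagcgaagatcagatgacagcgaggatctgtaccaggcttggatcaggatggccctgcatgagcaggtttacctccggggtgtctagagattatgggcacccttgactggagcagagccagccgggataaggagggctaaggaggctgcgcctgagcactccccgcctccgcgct
Cpt1a, chr19:3323051-3323300, plus strand: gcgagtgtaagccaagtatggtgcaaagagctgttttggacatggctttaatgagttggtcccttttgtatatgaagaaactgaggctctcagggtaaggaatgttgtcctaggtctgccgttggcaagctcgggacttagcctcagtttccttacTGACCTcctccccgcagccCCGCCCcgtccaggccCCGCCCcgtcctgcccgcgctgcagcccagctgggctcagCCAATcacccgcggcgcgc
Hadhb, chr5:30155003-30155252, plus strand: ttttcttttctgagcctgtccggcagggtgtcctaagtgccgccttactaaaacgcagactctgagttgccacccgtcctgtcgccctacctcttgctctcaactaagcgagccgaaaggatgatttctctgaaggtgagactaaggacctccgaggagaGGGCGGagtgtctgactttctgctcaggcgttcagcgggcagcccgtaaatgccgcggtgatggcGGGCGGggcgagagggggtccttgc

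The Slc16a1 window had 37 CpG dinucleotides and 76.4% GC, against medians of 6 CpG and 52.4% GC over all 32817 windows. Slc16a3, the other transporter with a window, had 29 CpG and 73.6% GC. The Bdh1 windows were poorer, with 7 CpG at the first start and 9 at the second, which lies 6456 bases downstream. Oxct1 had 6 CpG, Acat2 9, Cpt1a 14 and Hadhb 17. The Hadhb start lies 273 bases from that of Hadha, the gene of the partner subunit, and the pair point away from each other.

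GGGCGG occurred once in the windows of Slc16a1, Slc16a3 and Acat2 and 2 times each in those of Cpt1a and Hadhb, and 32.7% of all windows hold it. Cpt1a alone of the 7 genes held CCAAT, found in 33.8% of all windows, and alone held AGGTCA, found in 14.0%. No window of these genes held TATAAA (12.4% of all windows), AAGGTCA (4.08%, a motif that contains AGGTCA) or AGGTCANAGGTCA (0.0335%), the spaced repeat bound by PPAR and RXR. A match describes letters only and does not show a factor at the site.

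Slc16a1 encodes MCT1, the monocarboxylate transporter of brain endothelium and glia through which ketone bodies and lactate cross the blood-brain barrier. Its normalized intensity at 1 week had a lowest value of 552, a median of 627 and a highest of 688. On the 8-week arrays it was 304 and 353 for those labelled female and 379.6 and 395 for those labelled male. Every 8-week value lay below every 1-week value. The mean went from 619 ± 44.9 (SD, n = 6) to 358 ± 39.8 (SD, n = 4), a log2 change of -0.75 ± 0.08 (SE) and 1.69-fold (limma, adjusted p = 4.68e-05). Of all tested probe sets, 5.80% fell further. The call was lost without normalization, at -0.22 (limma, adjusted p = 0.201), against the shift of 0.47 of the whole array.

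Slc16a3 encodes MCT4, a transporter of low affinity known for lactate release, in brain mainly from astrocytes. Its intensity was 84.1 to 134 at 1 week, with a median of 104. The 8-week values were 74.3 and 57.5 on the arrays labelled female and 86.4 and 86.6 on those labelled male. The ages overlapped, since the lowest 1-week value lay below the highest at 8 weeks. The log2 change was -0.36 ± 0.12 (SE), from 105 ± 18.3 (SD, n = 6) to 76.2 ± 13.7 (SD, n = 4), past the threshold (limma, adjusted p = 0.0276). The call was lost when any of 4 arrays was left out: the 1-week array labelled female 3 (adjusted p = 0.0548), or the 8-week arrays labelled female 2 (0.111), male 1 (0.0669) or male 2 (0.0696). It was also lost without the 4 arrays whose Xist went against the label (-0.40, adjusted p = 0.086). Spike-in scaling lost the call too (-0.24, limma adjusted p = 0.419). On the unnormalized scale its sign turned (0.042, adjusted p = 0.815).

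Slc16a7 encodes MCT2, the high-affinity transporter of neurons. Its probe set was under the filter on low values, with 18.3 to 57.4 at 1 week and a median of 39.7. At 8 weeks it read 30.1 and 5.54 on the arrays labelled female and 18.4 and 3.34 on those labelled male. The ranges overlapped, and most values were near the pseudocount. Tested without the filter, the log2 change was -0.75 ± 0.24 (limma, adjusted p = 0.0429). A dim probe set does not show how much of the transcript the tissue held.

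**Figure D1:**
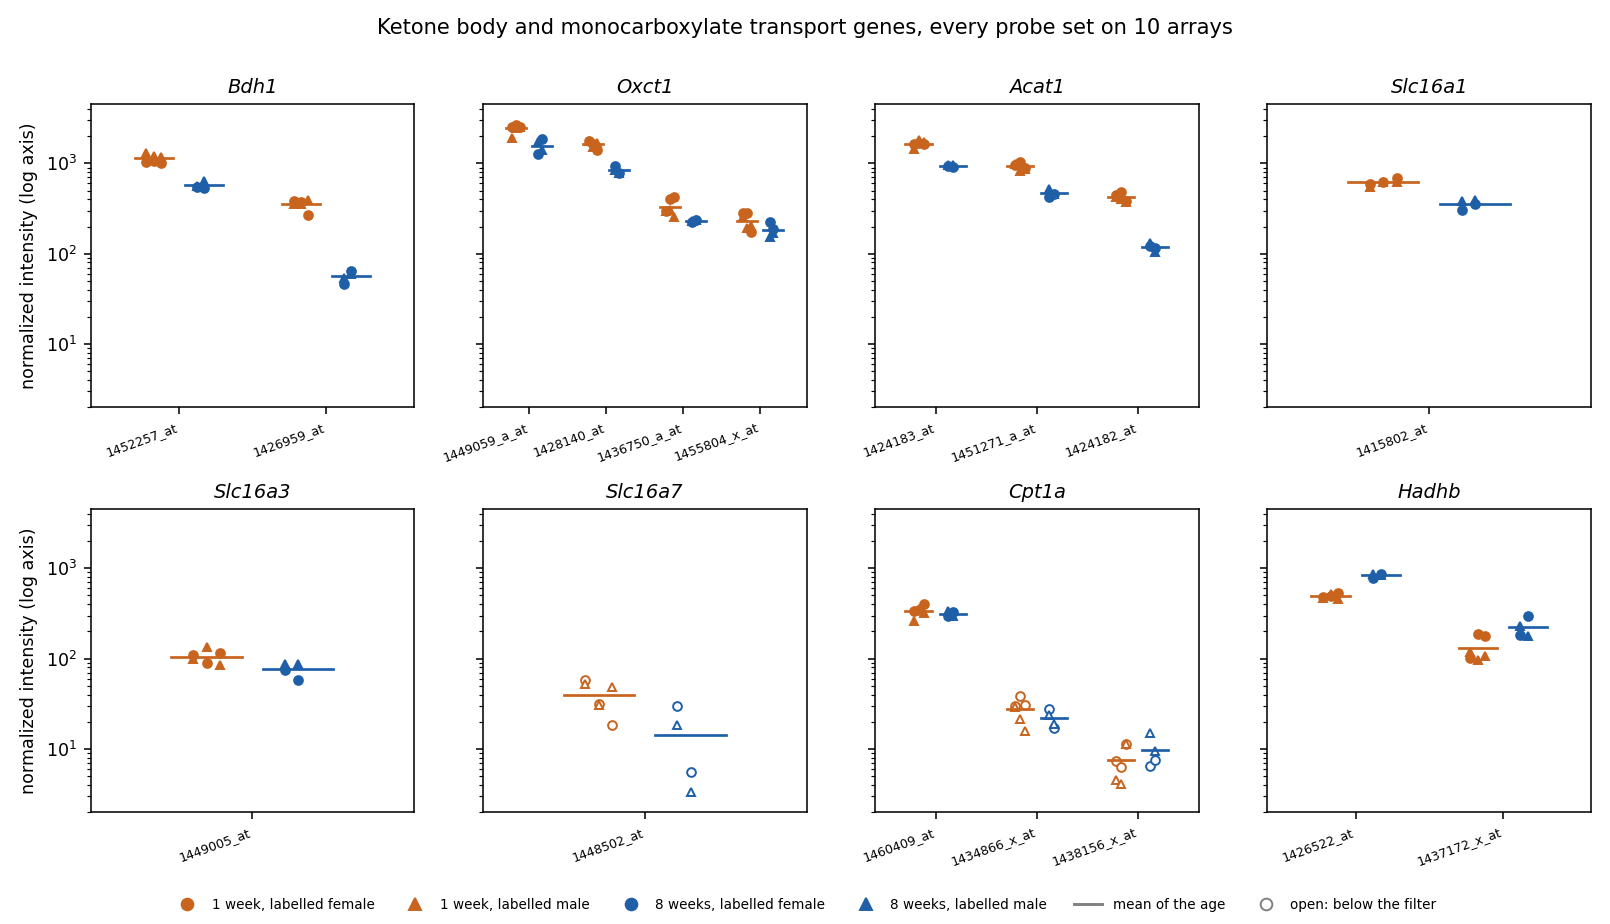
Normalized intensity (log axis) of all 17 probe sets of the 8 genes on each array, by age and labelled sex, with horizontal lines at the mean of each age. Open symbols are the 3 probe sets below the filter. Bdh1, Acat1 and Slc16a1 points at 8 weeks lie below all their 1-week points, Cpt1a points overlap, and the brighter Hadhb probe set lies higher at 8 weeks.

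Bdh1 encodes the mitochondrial dehydrogenase of β-hydroxybutyrate, the first step of its oxidation. On the brighter probe set, 1452257_at, intensity was 1001 to 1304 at 1 week, with a median of 1130. By 8 weeks it was 554 and 532 on the arrays labelled female and 557 and 636 on those labelled male. The 8-week arrays lay close together, well under the lowest 1-week array. The mean went from 1134 ± 115 (SD, n = 6) to 570 ± 45.7 (SD, n = 4), a log2 change of -0.96 ± 0.07 (SE) and 1.95-fold (limma, adjusted p = 5.43e-06).

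The second Bdh1 probe set, 1426959_at, had the most negative log2 change of the 14. Its 1-week intensity was 266 to 392, with a median of 366. The 8-week values were 45.7 and 64.3 on the arrays labelled female and 54.5 and 60.3 on those labelled male, under 73.9, the mean of the dimmest probe set kept. It passed the filter through its 1-week values, so the size of its change is set in part by the pseudocount. The mean went from 355 ± 46.4 (SD, n = 6) to 56.2 ± 8.07 (SD, n = 4), and the log2 change was -2.24 ± 0.12 (SE, limma adjusted p = 7.35e-07). With a pseudocount of 1 it was -2.64, and with 100 it was -1.54. For the brighter probe set, 3.32% of all tested probe sets fell further. Both Bdh1 probe sets kept their call in each of the 22 alternative analyses, including the unnormalized values (-0.42, adjusted p = 0.0116, and -1.80).

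Oxct1 encodes succinyl-CoA:3-ketoacid coenzyme A transferase, the step that commits acetoacetate to oxidation and that liver lacks. On its brightest probe set, 1449059_a_at, intensity at 1 week was 1908 to 2639 with a median of 2525. At 8 weeks it was 1284 and 1861 on the arrays labelled female and 1712 and 1405 on those labelled male. The ages did not overlap, though the lowest 1-week array was close to the highest 8-week array. The log2 change was -0.64 ± 0.12 (SE, limma adjusted p = 0.00206). It missed the threshold without the 4 arrays whose Xist went against the label (-0.49, adjusted p = 0.078), with spike-in scaling (-0.46, adjusted p = 0.0671) and without normalization (-0.11, adjusted p = 0.563).

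The 3 other Oxct1 probe sets were also lower at 8 weeks on average, and 2 of them passed the test. On 1428140_at intensity was 1399.9 to 1767 at 1 week, and at 8 weeks 938 and 786 on the arrays labelled female and 840.3 and 777 on those labelled male, with no overlap. Its log2 change of -0.94 ± 0.09 (SE, limma adjusted p = 2.91e-05) kept its call in all 22 alternatives. On 1436750_a_at intensity was 258 to 421 at 1 week and 224 to 239 at 8 weeks, a log2 change of -0.44 ± 0.10 (SE, limma adjusted p = 0.00541). Its sign turned without normalization (0.061, adjusted p = 0.719), and its call was lost with spike-in scaling (-0.26, limma adjusted p = 0.356). On 1455804_x_at intensity was 172 to 281 at 1 week and 152 to 227 at 8 weeks, and the log2 change of -0.28 ± 0.14 (SE) did not pass (limma, adjusted p = 0.133, 95% interval -0.59 to 0.03). A name ending in _x_at marks probes that may also match other transcripts, so this value may mix genes. It passed when the 1-week array labelled female 3 was left out (-0.39, adjusted p = 0.0141) and with replicate number as a block (-0.41, adjusted p = 0.0296). Without normalization its sign turned (0.20, limma adjusted p = 0.231), and with spike-in scaling it was -0.12, neither passing.

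Acat1 encodes mitochondrial acetoacetyl-CoA thiolase, which yields acetyl-CoA at the end of ketone body breakdown and also serves isoleucine breakdown. On 1424183_at intensity was 1429.8 to 1795 at 1 week with a median of 1649. By 8 weeks it was 925 and 919.7 on the arrays labelled female and 965 and 956 on those labelled male, a log2 change of -0.79 ± 0.08 (SE, limma adjusted p = 3.30e-05). The 4 adult arrays lay closer to each other than the 1-week arrays did, and all were lower. On 1451271_a_at intensity went from 827 to 1048 at 1 week to 420.1, 453, 525 and 459.7 at 8 weeks, a log2 change of -0.96 ± 0.09 (SE, limma adjusted p = 1.45e-05). On 1424182_at it went from 374 to 485 at 1 week to 123, 115, 132 and 104 at 8 weeks, a log2 change of -1.63 ± 0.09 (SE, limma adjusted p = 1.04e-06). None of the 3 overlapped between ages. Without normalization the first was no longer called (-0.24, adjusted p = 0.176), and the other 2 were.

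Aacs, acetoacetyl-CoA synthetase, uses acetoacetate in the cytosol for lipid synthesis and so draws on ketone bodies without burning them. On its brightest probe set intensity was 363 to 494 at 1 week. The 8-week arrays read 130.2 and 170.1 on the arrays labelled female and 167 and 151 on those labelled male, a log2 change of -1.39 ± 0.10 (SE, limma adjusted p = 4.29e-06). A second Aacs probe set fell too, at -0.88 ± 0.10 (SE, limma adjusted p = 5.02e-05). With Aacs, all 4 measured genes of the list of ketone body synthesis and use were lower, with a median of -0.87. Over all genes 24.0% were lower and the median was -0.020. Without normalization 2 of the 4 were lower.

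**Figure D2:**
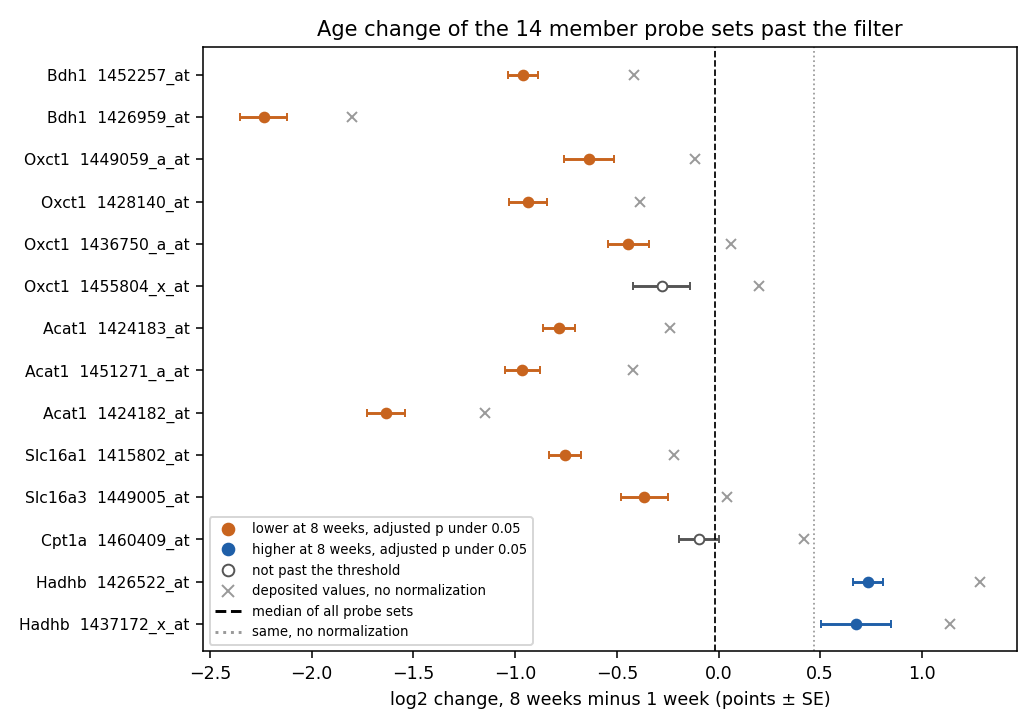
Log2 change with age of the 14 tested probe sets (points, with bars of 1 SE, filled where the adjusted p was under 0.05) and the same change without normalization (crosses). The vertical lines are the medians of all probe sets on each scale. The 10 orange points lie left of the dashed line, between -0.36 and -2.24, and the 2 blue Hadhb points lie right of it at 0.68 and 0.74.

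Cpt1a encodes the liver-type carnitine palmitoyltransferase, the gate of long-chain fatty acids into mitochondria and a known PPARα target. On its bright probe set intensity was 263 to 399.8 at 1 week with a median of 340.2. At 8 weeks it was 296 and 325 on the arrays labelled female and 333 and 296 on those labelled male, inside the 1-week range. The log2 change of -0.09 ± 0.10 (SE) did not pass (limma, adjusted p = 0.463, 95% interval -0.31 to 0.12). Without normalization it was 0.42 (adjusted p = 0.025), close to the median of all probe sets on that scale. The other 2 Cpt1a probe sets were below the filter, with means of 27.6 and 7.50 at 1 week and 21.8 and 9.69 at 8 weeks.

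Hadhb encodes the β subunit of the mitochondrial trifunctional protein, the thiolase of long-chain fatty acid oxidation. On 1426522_at intensity was 453 to 527 at 1 week with a median of 489.7. The 8-week arrays read 775 and 859 on the arrays labelled female and 854 and 847 on those labelled male, above every 1-week array. The mean went from 491 ± 29.5 (SD, n = 6) to 834 ± 39.4 (SD, n = 4), a log2 change of 0.74 ± 0.07 (SE) and 1.67-fold (limma, adjusted p = 3.11e-05). Of all tested probe sets, 6.28% rose further. The second probe set, 1437172_x_at, was 95.7 to 186 at 1 week and 179.7 to 299 at 8 weeks, which overlap, with a change of 0.68 ± 0.17 (SE, limma adjusted p = 0.0086). That call was lost without the 4 arrays whose Xist went against the label (0.52, adjusted p = 0.118).

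Hadha, the α subunit of the same complex, was picked for comparison after its values were seen. Its intensity was 340.4 to 479 at 1 week and 357 to 376 at 8 weeks, so the 8-week arrays lay inside the 1-week range. The change of -0.17 ± 0.10 (SE) did not pass (limma, adjusted p = 0.175). Without the 1-week array labelled female 1 it passed as lower (-0.24, adjusted p = 0.0203), and without normalization it passed as higher (0.36, adjusted p = 0.0386). No test of the difference between Hadhb and Hadha was run.

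These transporters depend on chaperones: basigin, from Bsg, brings MCT1 and MCT4 to the cell surface, and embigin, from Emb, does so for MCT2. Bsg intensity was 1930.2 to 2417 at 1 week and 2033 to 2284 at 8 weeks, a change of 0.0095 ± 0.08 (SE, limma adjusted p = 0.932). Without normalization Bsg passed as higher (0.53, adjusted p = 0.00518), near the 0.47 of all probe sets. Emb was 144 to 176 at 1 week, and at 8 weeks 340.1 and 396 on the arrays labelled female and 403 and 338 on those labelled male. The Emb arrays did not overlap, and its change of 1.11 ± 0.09 (SE, limma adjusted p = 6.79e-06) was matched by a second probe set at 1.04 ± 0.14 (SE). Slc16a11, a further family member, had 208 to 289.9 at 1 week and 239 to 459 at 8 weeks and did not pass (0.34 ± 0.17, limma adjusted p = 0.136). It passed without the 8-week array labelled male 1 (0.56, adjusted p = 0.0133).

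Of the 18 transporters and chaperones listed, 10 were on the array and 5 were tested. Of these 1 was higher (Emb), 2 lower (Slc16a1 and Slc16a3) and 2 not called, with a median of 0.0095. Over all genes 21.9% were higher and 24.0% lower. The unnormalized values of the listed genes gave 3 higher and 0 lower. Slc16a4, Slc16a6, Slc16a8 and Slc5a8 were below the filter with Slc16a7.

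**Figure D3:**
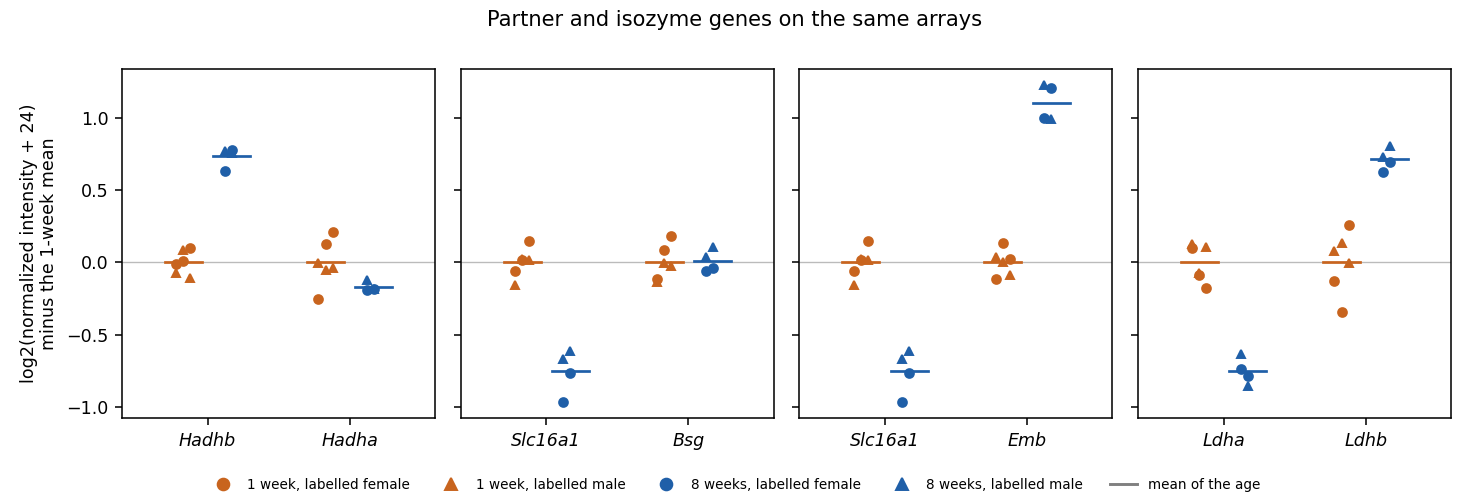
Partner and isozyme genes on the same arrays, as log2(normalized intensity + 24) minus the 1-week mean of each gene, with lines at the mean of each age. At 8 weeks Hadhb lies above and Hadha slightly below its 1-week mean, Slc16a1 lies below while Bsg stays near 0 and Emb rises, and Ldha lies below while Ldhb lies above.

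Slc16a1 and Slc16a3 were set against each other on the same arrays, since a within-array difference removes much of the overall brightness, though not all with a pseudocount added. Only the change of such a difference is read, because probe sets differ in brightness for reasons other than transcript level. The log2 difference Slc16a1 minus Slc16a3 was 2.33 ± 0.20 (SD, n = 6) at 1 week and 1.94 ± 0.20 (SD, n = 4) at 8 weeks. The change of -0.39 had an exact two-sided permutation p of 0.0286 over 210 splits, and an adjusted p of 0.0857 over 3 pairs. Without normalization the change was -0.26, and with spike-in scaling -0.32. Its adjusted p passed without the 1-week array labelled male 2 (0.0476, exact permutation) or the 8-week array labelled female 2 (0.0357, exact permutation). The difference Oxct1 minus Bdh1, on the brightest probe set of each, changed by 0.32 (exact permutation p = 0.162, adjusted p = 0.243). The other probe sets changed by -0.94 to -0.28 for Oxct1 and by -2.24 for Bdh1, and were not paired. No change can be read for Slc16a1 minus Slc16a7, where Slc16a7 was below the filter: it was -0.0017 (exact permutation p = 1, adjusted p = 1), but 0.94 with a pseudocount of 1, -0.36 with 100 and 0.31 without normalization. The smallest p this design allows is 0.00476. The planned pair of Acat1 and Acat2 was not formed.

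The fuels next to ketone bodies were counted from lists of genes by pathway. Over all 8148 genes tested, 21.9% were higher and 24.0% lower, with a median of -0.020. Without normalization 5261 of all genes were higher and 365 lower. Glucose uptake and glycolysis had 10 of 17 measured genes higher and 1 lower, with a median of 0.49. Aldoc, an aldolase of astrocytes, changed by 1.51 ± 0.11 (SE), Eno2, the neuronal enolase, by 1.15 ± 0.07 (SE), and Pkm, pyruvate kinase, by 0.92 ± 0.09 (SE). Slc2a1, the glucose transporter of brain endothelium, was named after its values were seen. It was 224 to 287 at 1 week and 436 to 505 at 8 weeks, a change of 0.84 ± 0.08 (SE, limma adjusted p = 2.52e-05). Pfkp, a phosphofructokinase, was the 1 called lower, at -0.31 ± 0.09 (SE). Without normalization the list had 16 higher and 0 lower.

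Lactate and pyruvate handling had 3 of 10 measured genes higher and 1 lower, against 21.9% and 24.0% of all genes. The list median was 0.10, and without normalization 9 of its genes were higher and 0 lower. Ldha, the lactate dehydrogenase subunit favoured where lactate is made, was 1935 to 2401 at 1 week and 1202 to 1408 at 8 weeks, a change of -0.75 ± 0.09 (SE, limma adjusted p = 7.77e-05). Ldhb, the subunit favoured where lactate is burned, was 1602 to 2448 at 1 week and 3161 to 3593 at 8 weeks, a change of 0.72 ± 0.11 (SE, limma adjusted p = 5.06e-04). Neither gene overlapped between ages on these probe sets, and they moved in opposite directions. Of the 4 Ldhb probe sets, 1455235_x_at missed the threshold (0.41, limma adjusted p = 0.0516). Without normalization Ldha no longer passed (-0.23, adjusted p = 0.13). Pdk2, a kinase that turns off pyruvate dehydrogenase, rose by 1.05 ± 0.12 (SE), and Pcx, pyruvate carboxylase, by 0.37 ± 0.07 (SE).

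Mitochondrial fatty acid oxidation had 3 of 22 measured genes higher and 1 lower, against 21.9% and 24.0% of all genes. The list median was 0.0082, and 18 of its genes were not called. Beside Hadhb the higher genes were Acsl6, a neural acyl-CoA synthetase (0.99 ± 0.11, SE), and Acadvl, the very-long-chain dehydrogenase (0.35 ± 0.08, SE). Eci2, an enoyl-CoA isomerase, was lower at -0.34 ± 0.10 (SE, limma adjusted p = 0.0166), a call lost without the 8-week array labelled female 1 (adjusted p = 0.0677) or male 2 (0.0774) and turned in sign without normalization (0.16, adjusted p = 0.315). Unnormalized values gave 17 of the 22 as higher and 0 lower. The count of lower genes ran from 0 to 3 when single arrays were left out: 2 without the 1-week array labelled female 1 or male 3, 3 without the 8-week array labelled male 1, and 0 without the 8-week array labelled female 1 or male 2.

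Peroxisomal β-oxidation had 3 of 7 measured genes higher and 1 lower, against 21.9% and 24.0% of all genes. The list median was 0.27. Abcd2, a peroxisomal fatty acid transporter, was higher by 0.91 ± 0.12 (SE), Scp2, a thiolase and sterol carrier, by 0.51 ± 0.10 (SE) and Pex11a by 0.38 ± 0.09 (SE), while Abcd3 was lower by -0.52 ± 0.11 (SE). The 1-week mean of Abcd2, 53.6, was under that of the dimmest probe set kept, so it passed the filter through its 8-week values and the size of its change is uncertain. Unnormalized values gave 6 higher and 0 lower.

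The list of PPAR regulators and fasting-response genes split evenly, with 4 of 10 measured genes higher, 4 lower and a median of 0.029. Over all genes 21.9% were higher and 24.0% lower. Ppargc1b (1.04 ± 0.09, SE), a coactivator of mitochondrial genes, Esrra (0.75 ± 0.13, SE), a nuclear receptor it works with, and Sirt3 (0.59 ± 0.08, SE), a mitochondrial deacetylase, were higher. Angptl4, a lipase inhibitor induced by fasting (-1.41 ± 0.08, SE), and Acot1, an acyl-CoA thioesterase (-0.98 ± 0.14, SE), were lower. Their 8-week means, 41.6 and 65.9, were under that of the dimmest probe set kept, so both passed the filter through their 1-week values and the sizes of their changes are uncertain. Plin2 (-0.49 ± 0.08, SE) and Txnip (-0.46 ± 0.09, SE) were also lower, with means above that level at both ages. Ppargc1a (0.55 ± 0.11, SE) was the other gene called higher. Unnormalized values gave 7 higher and 2 lower.

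Cytosolic acetyl-CoA, fatty acid and sterol synthesis, the pathway of Acat2, had 15 of 19 measured genes lower and 4 higher. The list median was -0.60, and over all genes 24.0% were lower and 21.9% higher. Mvk, mevalonate kinase, changed by -1.54 ± 0.20 (SE), Fdps, farnesyl diphosphate synthase, by -1.38 ± 0.09 (SE), and Sqle, squalene epoxidase, by -1.27 ± 0.09 (SE). Scd1, a fatty acid desaturase (0.73 ± 0.07, SE), and Acss2, which activates acetate (0.54 ± 0.08, SE), were higher. Without normalization 5 of the list were lower and 4 higher. The lists describe these genes and were not tested as sets.

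**Figure D4:**
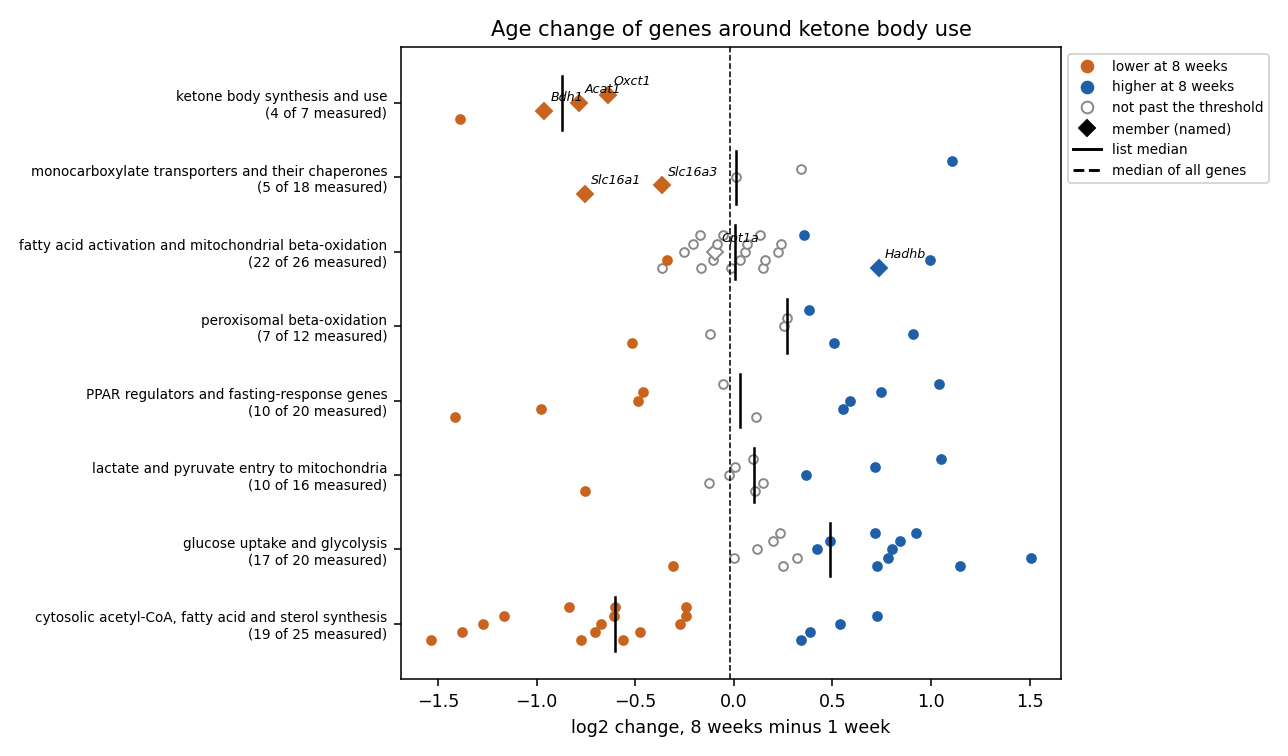
Log2 change with age of each tested gene in 8 pathway lists, coloured by call, with the list median (solid bar) and the median of all genes (dashed line). Ketone body genes lie between -1.39 and -0.64, glycolysis genes lie mostly to the right with a median of 0.49, and fatty acid oxidation genes lie around 0 with Hadhb at 0.74.

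Within the arrays labelled female, 10 of the 14 probe sets were lower and 1 higher at 8 weeks, against 16.2% lower and 14.4% higher over all tested probe sets. Within those labelled male the counts were 8 lower and 2 higher, against 16.6% and 15.5%. The fall of Slc16a1 was -0.90 in the arrays labelled female and -0.61 in those labelled male. The difference between labels could not be read as one between sexes, because the 1-week label groups mix arrays of high and low Xist. For these genes it ran from -0.18 to 0.35 (limma, lowest adjusted p = 0.858), and over all probe sets 0 passed, with 757 at an unadjusted p under 0.05. Labelled male against female at 8 weeks also gave 0 calls (limma), with 345 at an unadjusted p under 0.05. That test missed even Xist, at 1405 and 1679 on the 8-week arrays labelled female and 131 and 134 on those labelled male. It shares its estimate of spread with the mixed 1-week groups, so neither count of 0 speaks for or against a sex difference in these genes.

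The genes most like these in pattern were sought over the 10 arrays among 8148 genes, by the mean absolute difference of log2 values centred on each gene's mean. For Slc16a1 they were R74862 (0.0477), Carmil1 (0.0604), an actin-filament regulator, and Slc39a6 (0.0635), a zinc transporter. For Oxct1 they were Abca1 (0.0784), a cholesterol exporter, Pdgfa (0.0809), a growth factor, and Phf5a (0.0862), a splicing factor. For Bdh1 they were Snx4 (0.0716), a sorting nexin, Erc1 (0.0723), a scaffold of the synapse, and Gsto1 (0.0729), a glutathione transferase. These are likenesses over the same 10 libraries, which share 1 age step.

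Transcripts that mark several cell types differed between the ages. In bulk tissue fewer cells of a type and less RNA per cell cannot be told apart. Over all genes tested 21.9% were higher and 24.0% lower at 8 weeks. Each sum below covers all listed markers on the array, with those below the filter, while calls are of tested markers only. MCT1 sits at the barrier in endothelial cells. The 12 endothelial markers summed to 2103 to 2436 at 1 week and 2181 to 2320 at 8 weeks. Of the 11 tested, 3 were higher and 4 lower. The astrocyte sum went from between 5696 and 8052 to between 9657 and 10263, with 5 of 10 markers higher and 1 lower. For oligodendrocytes and myelin the sum was 2444 to 11617 at 1 week and 14319 to 18653 at 8 weeks, with 6 of 8 higher. Their precursors went the other way, from 2697 to 3395 down to 2002 to 2593, with 4 of 6 lower.

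Mature neuron markers summed to between 10013 and 12265 at 1 week and between 17350 and 17429 at 8 weeks, with 7 of 9 higher. All 8 immature neuron markers were lower, and their sum went from 16942 to 21262 at 1 week to 4339 to 4633 at 8 weeks. Microglia had 7 of 7 tested markers higher, with sums of 2377 to 2831 and 3228 to 4342. Cerebellar neuron markers, a guide to the regions sampled, summed to 1778 to 6862 and 4694 to 18418, with 5 of 8 higher. The meningeal and mural sum was 3111 to 10784 at 1 week and 1957 to 2599 at 8 weeks, with 4 of 8 lower.

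Choroid plexus markers summed to 5047 to 6357 and 4047 to 9104, with 0 of 3 called. The single tested blood marker was lower at 8 weeks, and the blood sums were 147 to 548 and 140 to 205. Pituitary sums were 331 to 2695 and 1056 to 13531, with 2 of 4 higher. Of the markers on the array none was at 0, and those below the filter were Tie1, Mog, Aif1, Itgam, Kl, Kcne2, Hba-a1, Slc4a1, Ppbp, Cga and Tshb. The part of these cell types in the changes of the ketone body and transport genes was not tested.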

How the data were processed

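Brain RNA was hybridised to 10 MOE430A arrays. Each array's deposited column held linear intensity values, 1 for each probe set. How the authors summarised or scaled the probes is not given in the sources used here. The number of arrays limits the precision. The genes, the pathway and marker lists and the tests were chosen with earlier results of these data known.

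All 22690 probe sets were quantile-normalized, and 64 control probe sets were then left out. A pseudocount of 24, the 20th percentile of the deposited intensities, was added before log2. Probe sets whose mean log2 value was under the 40th percentile were left out, leaving 13576. Symbols came from the platform annotation, which can be old: 20380 probe sets had 1 symbol, 691 several and 1555 none. Linear models with 1 coefficient per age and labelled sex were fitted over all probe sets in R 4.3.3 with limma 3.58.1 (lmFit, eBayes). The contrast was 8 weeks minus 1 week averaged over labels, two-sided, with Benjamini-Hochberg adjustment over all probe sets and a threshold of 0.05. Pair differences used exact permutation over arrays. Of these steps only the age contrast was tried on simulated data, which held no brightness difference between ages. That trial could not test the effect of normalization, and the pair and list steps were not tried.

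Named genes were all 9 members, every tested gene of the ketone and transporter lists, and from the other lists up to 3 called genes in the commoner direction and 2 in the other, by size of change. The list of PPAR and fasting genes tied, and 3 higher and 2 lower genes were taken from it. Hadha, Slc2a1, Plin2, Txnip and Ppargc1a were added after their values were seen. For Slc16a1, Oxct1 and Bdh1 the 3 most alike genes were named. Alternatives were pseudocounts of 1 and 100, no normalization, median and spike-in scaling (9 probe sets), no filter and a 60th percentile filter, leaving out each array in turn, replicate number as a block (replicate block), array weights, a trend on intensity, age alone, age alone without arrays whose Xist opposed the label, and the most variable probe set per gene. RefSeq promoter windows were cut to the 250 bases before the start.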

Additional observations from a re-analysis of the deposited data

Results flagged for a closer look

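In 40 sets of arrays of 1 age, each for 1 probe set or pair difference, 4 had an array far from the rest by Dixon's criterion, and chance alone gives about 1 in 20. For Bdh1 1426959_at at 1 week, the array labelled female 3 read 266, below the others by a share of 0.741 of the whole range. For Oxct1 1449059_a_at at 1 week, the array labelled male 1 read 1908, with a share of 0.807. The same array stood apart for the difference Oxct1 minus Bdh1, at 0.54 on the log2 scale with a share of 0.636. For Hadhb 1426522_at at 8 weeks, the array labelled female 1 read 775, with a share of 0.860. Leaving out any of these arrays did not change the call of the probe set concerned.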

How the results depend on the processing

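Of the 14 tested probe sets of these genes, 6 kept their call in each of the 22 alternatives that tested them. Scaling moved most. Without normalization, all probe sets gave 8673 higher and 629 lower, and all genes 5261 and 365. There, 5 member probe sets were lower, and by genes 2 members were higher and 1 lower. By list the counts there were 2 lower for ketone bodies, 3 higher and 0 lower for transporters, 17 and 0 for mitochondrial fatty acid oxidation, 6 and 0 for peroxisomal oxidation, 7 and 2 for PPAR and fasting genes, 9 and 0 for lactate and pyruvate, 16 and 0 for glycolysis, and 5 lower for sterol and fatty acid synthesis. Signs turned there for Oxct1 1436750_a_at (0.061) and 1455804_x_at (0.20), Slc16a3 (0.042), Cpt1a (0.42), Hadha (0.36) and Eci2 (0.16). The whole-array median there was 0.47. The label interaction and labelled sex at 8 weeks each gave 1 call without normalization, and 24 and 18 with spike-in scaling. In the spike-in fit the tested probe sets of these genes all had the same SE, so its counts are not comparable with those of the main fit.

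With spike-in scaling 1013 of all probe sets and 576 of all genes were lower, and 3 member genes. Lists then gave 2 higher and 1 lower transporter, 0 lower in mitochondrial and 0 in peroxisomal oxidation, 2 lower PPAR and fasting genes, 0 lower in glycolysis and 7 lower in synthesis. Age alone without the arrays whose Xist opposed the label left 1968 probe sets and 1149 genes lower, 3 member genes lower and 1 member probe set higher. It left 1 transporter, 0 peroxisomal and 0 glycolysis genes lower and 2 synthesis genes higher. That setting has fewer arrays. The 60th percentile filter, which tests fewer probe sets, left 1 member probe set higher, 1 transporter lower, 1 peroxisomal gene higher and 2 PPAR and fasting genes lower. The most variable probe set per gene gave 0 lower in glycolysis. A pseudocount of 100 gave a change of -0.44 for Slc16a1 minus Slc16a3 (exact permutation, adjusted p = 0.0143). Apart from what construction shows, the cause was not tested.

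Leaving out single arrays, the lower counts ran from 0 to 3 in mitochondrial oxidation, 1 to 2 for transporters and 0 to 1 in glycolysis, and the higher count from 1 to 2 for transporters. Slc16a1 minus Slc16a3 ran from -0.48 to -0.33. The interaction and labelled sex at 8 weeks each ran from 0 to 2. Same-numbered arrays correlated from -0.025 to 0.19 in their deviations, and from 0.098 to 0.19 between the 1-week labels. Of the 1-week arrays, 6 of 6 correlated best with their own number. The 8-week groups hold 2 arrays each, whose deviations mirror each other, so their correlations say little. The main fit did not take the numbers as pairs, and what they share was not tested. With the replicate block 11 member probe sets were lower and 2 higher, and 2848 probe sets were higher and 3053 lower in all. Beside Oxct1 1455804_x_at, named above, the block lost Eci2 (adjusted p = 0.054) and gained Ldhb 1455235_x_at (0.55, adjusted p = 0.0142). Signal limits Slc16a7 and the 2 dim Cpt1a probe sets, which lie near the pseudocount.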
